A study of Homo sapiens with 12 samples.

Results

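FGFR3, TACC3, the other FGF receptor genes FGFR1, FGFR2 and FGFR4, the ligand carrier gene FGFBP1 and the adaptor gene FRS2 were followed in RT4, a cell line established from a human bladder cancer. These 7 genes were taken by name, and all 7 were listed among the 61860 genes of the overexpression table and the 62700 genes of the resistance table. In the overexpression experiment, 3 vector libraries came from cells given the empty Flag vector and 3 ITGB4 plasmid libraries from cells given Flag-tagged ITGB4, the beta 4 integrin subunit, with a treatment label of transfection infection on both groups. In the resistance experiment, 3 parental libraries came from wild-type cells labelled with PBS and 3 resistant libraries from the cisplatin-resistant line labelled with cisplatin, a DNA-crosslinking platinum compound. Neither a dose nor a time is given for either treatment, and the labels do not say whether the resistant cells are a clone or a mixed population. The resistant line and the cisplatin label go together, so their parts in any change cannot be told apart. A change in resistance below means resistant against parental libraries, with that limit. The medium was McCoy's 5A in the overexpression experiment and MEM in the resistance experiment, both with fetal bovine serum, so the experiments differ in more than the comparison made within each. The study's title names ITGB4, STAT3 and sensitivity to cisplatin, and each comparison asks how the 7 genes stood against that experiment's own controls.

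FGF receptors are tyrosine kinases of the cell surface. They bind fibroblast growth factors together with heparan sulfate, pair up, and phosphorylate the docking protein FRS2, which recruits GRB2 and SOS1 and so opens the RAS and MAP kinase route. FGFR3 is the receptor best known in bladder cancer, where it is often activated by point mutation or by fusion. RT4 is known to carry a fusion that joins the kinase part of FGFR3 to the coiled-coil part of TACC3, a protein that otherwise binds spindle microtubules in mitosis. Reads from the fusion transcript count toward FGFR3 at its 5′ part and toward TACC3 at its 3′ part. The gene counts used here cannot separate the fusion from wild-type FGFR3 or wild-type TACC3.

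Total counts lay between 22701466 and 33352045 per overexpression library and between 31824582 and 38199946 per resistance library. ITGB4 was higher in all 3 plasmid libraries than in any vector library, at 1427 ± 53.6 CPM (TMM-normalised counts scaled to library size, SD, n = 3) against 869 ± 10.97 CPM in the vector group. It was also higher in all 3 resistant libraries than in any parental one, at 837 ± 9.37 CPM against 600 ± 2.09 CPM in the parental group (log2 0.48 ± 0.033, adjusted p = 1.45e-09), so it rose in both experiments. The columns read as parental are headed NC with a number, which no parental title holds and which the titles of the vector libraries do hold. The vector libraries have columns of their own in the overexpression table, and the NC columns stand beside the resistant ones, so calling them parental is an inference. The labels of some overexpression libraries name ITGB5 or ITGB6 where their titles name ITGB4, and the titles were followed. The epithelial marker KRT7 was high in every group, with mean levels of 1509, 1825, 1238 and 1675 CPM in vector, plasmid, parental and resistant libraries. Levels differed widely between such markers. In the same order, the urothelial marker UPK2 had 6.42, 3.34, 7.32 and 11.7 CPM, and UPK3A had 3.69, 2.74, 1.57 and 4.79 CPM. KRT20, a marker of the most mature urothelial cells, was at 0 counts in all 12 libraries. Of 13 markers of leukocytes, endothelium, fibroblasts and muscle, VIM and DES had at most 1 and 3 counts in any library. Others of the 13 were detected in every group. In vector, plasmid, parental and resistant libraries COL1A1 had means of 4.05, 6.89, 11.7 and 4.67 CPM. ACTA2 had 3.14, 5.48, 1.12 and 2.51 CPM in the same order, and VWF 2.06, 1.38, 1.22 and 1.14 CPM. The summed level of the 13 was 53.5 to 57.3 CPM in vector, 31.3 to 34.01 in plasmid, 14.6 to 14.8 in parental and 8.88 to 9.48 in resistant libraries. Most of the vector sum was COL3A1, a fibrillar collagen gene, at a mean of 45.9 CPM against 18.2 in the plasmid group. In the parental and resistant groups COL3A1 was at 0.056 and 0.387 CPM, and most of the parental sum was COL1A1. The part of these genes in the results below was not tested.

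FGFR3 lies at 4:1793293-1808872 on the plus strand (GENCODE 29, GRCh38), and TACC3 at 4:1721490-1745176 on the same strand, 48.1 kb upstream. FGFBP1 lies on the same chromosome at 4:15935569-15938740 on the minus strand. FGFR2 lies on chromosome 10 (121478334-121598458, minus), FGFR4 on chromosome 5 (177086886-177098144, plus) and FRS2 on chromosome 12 (69470349-69579789, plus). In GENCODE 29, FGFR1 alone of the 7 shared exon bases with another annotated gene. LETM2 covered 0.997% of its exon bases and the antisense gene AC087623.1 covered 1.13%. The overexpression counts were made without strand, so reads from those stretches cannot be assigned to either gene.

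The 250 bases before the RefSeq start (GRCh38.p14) are printed for FGFR3, TACC3 and FGFBP1, because FGFR3 and TACC3 moved in the same direction in each experiment and FGFBP1 in the opposite one. Capitals mark GGGCGG, the GC box, on either strand. The windows are chr4:1793043-1793292 (plus) for FGFR3, chr4:1720381-1720630 (plus) for TACC3 and chr4:15938741-15938990 (minus) for FGFBP1, each written 5′ to 3′.
FGFR3: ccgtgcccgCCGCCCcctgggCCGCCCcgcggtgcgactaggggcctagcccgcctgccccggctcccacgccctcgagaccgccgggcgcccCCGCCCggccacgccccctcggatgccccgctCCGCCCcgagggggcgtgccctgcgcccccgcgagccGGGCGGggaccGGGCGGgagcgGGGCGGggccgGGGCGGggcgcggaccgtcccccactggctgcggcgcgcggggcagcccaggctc
TACC3: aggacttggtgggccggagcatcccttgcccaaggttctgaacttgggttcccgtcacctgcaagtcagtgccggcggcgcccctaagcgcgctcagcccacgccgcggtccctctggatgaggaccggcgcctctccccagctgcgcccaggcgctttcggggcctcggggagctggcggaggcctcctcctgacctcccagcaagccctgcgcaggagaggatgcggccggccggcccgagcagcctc
FGFBP1: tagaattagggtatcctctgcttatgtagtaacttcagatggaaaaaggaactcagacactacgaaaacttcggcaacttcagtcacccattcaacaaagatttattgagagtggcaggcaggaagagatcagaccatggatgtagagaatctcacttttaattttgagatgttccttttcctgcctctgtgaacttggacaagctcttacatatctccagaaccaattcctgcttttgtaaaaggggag
The windows differed in composition, with 86.8% G and C for FGFR3, 71.6% for TACC3 and 40.8% for FGFBP1, against a median of 58.0% over 35116 RefSeq windows. FGFR3 held 8 GC boxes, a number reached by 205 windows (0.584%), while TACC3 and FGFBP1 held 0. At least 1 GC box stood in 42.6% of all windows. Searched on both strands, TGANTCA (AP-1, in 6.57% of windows), TTCNNNGAA (STAT, in 6.57%) and TTTGAA (CHR, a cell-cycle element, in 13.3%) had 0 matches in these 3 windows and in that of FRS2. CCGGAA (ETS, in 14.5%) had 2 matches in the FRS2 window, which also held 3 GC boxes. A match is a string of letters and not a site, and no match says only that the letters are not in that window. The RefSeq start of TACC3 lies upstream of the GENCODE one and inside the span of TMEM129, a gene on the other strand.

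Against its vector controls, the ITGB4 plasmid group had less FGFR3, FGFR2, FGFR1 and TACC3 transcript and more FGFBP1 and FRS2. The resistant group had more FGFR3, TACC3 and FGFR2 than the parental group and less FGFBP1 and FRS2. FGFR4 passed the test in neither comparison, and FGFR1 only in the first. All 7 genes passed the low-count filter in both. With the plasmid, 2 genes rose, 4 fell and 1 was not called, beside 36.5% of all 16950 tested genes called higher, 35.7% called lower and 72.2% called in either direction (edgeR quasi-likelihood test, adjusted p under 0.05). In resistance 3 rose, 2 fell and 2 were not called, beside 26.8% of 16875 tested genes called higher, 27.7% lower and 54.5% in either direction. So wide a change makes a call for any gene common, and the sizes and library values carry the description. The libraries of the 2 groups did not overlap for all 7 genes with the plasmid and for 5 in resistance. The share of all tested genes without overlap was not computed, so lack of overlap is given as a description only. Scaling by library size alone or by upper quartiles raised the share of higher calls in resistance from 49.1% to 67.8% and 61.6%, and moved the median over genes by 0.16 and 0.11 on the log2 scale. No member that was called reversed under those scalings. The libraries of a group are not stated to come from separate cultures, so the p-values measure only the spread between libraries, which may be technical. In bulk RNA, fewer cells that express a gene and less RNA per cell cannot be told apart.

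**Figure D1:**
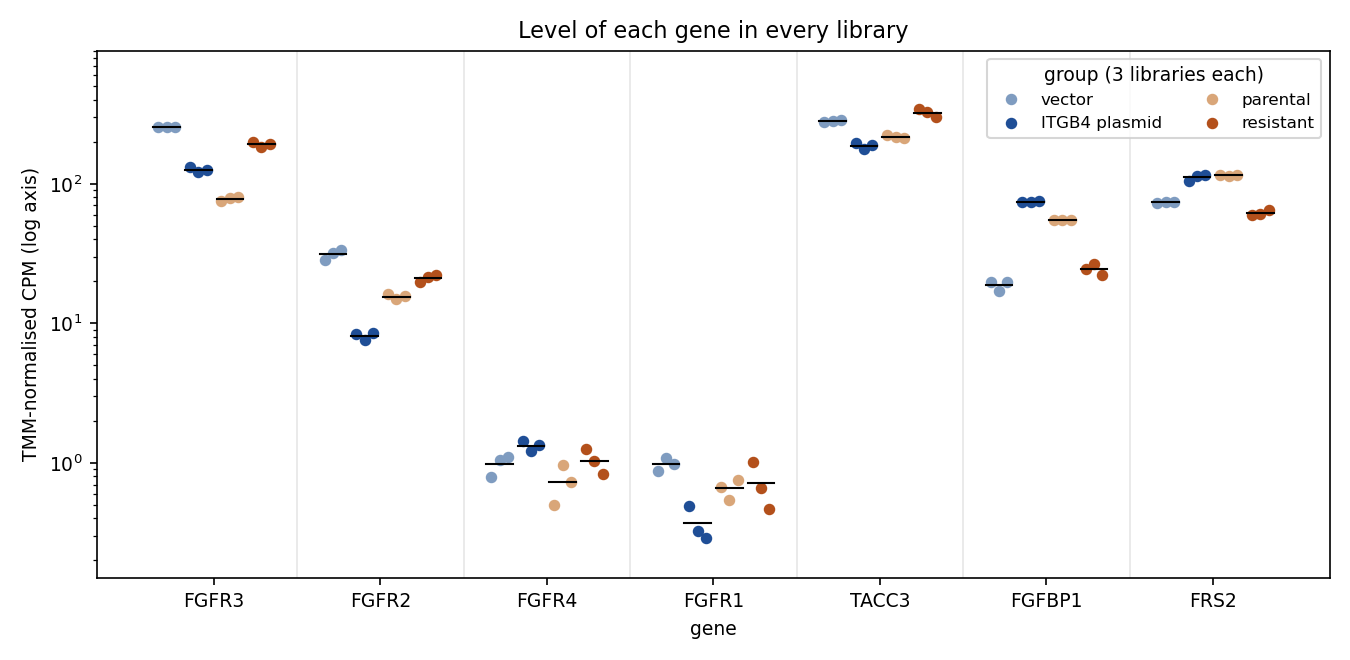
TMM-normalised CPM (log axis) of the 7 genes in each of the 12 libraries. Points are libraries, coloured by group, and black lines are group means (n = 3). FGFR3, FGFR2, TACC3, FGFBP1 and FRS2 show no overlap between the 2 groups of either experiment, while FGFR1 and FGFR4 sit near 1 CPM or below it. The share of all genes without overlap was not computed.

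FGFR3, the receptor of this line with the highest level, stood at 254.5, 256.1 and 256.8 CPM in the vector libraries and at 131.8, 121.4 and 126.1 CPM in the plasmid libraries. The vector libraries lay close together, and every plasmid library was far below all of them. The means were 255.8 ± 1.15 and 126.4 ± 5.21 CPM (SD, n = 3), a 2.02-fold fall, with a log2 fold change of -1.02 ± 0.030 (SE) and an adjusted p of 1.27e-14 (edgeR quasi-likelihood test). Of all tested genes, 15.7% had a change of at least that size.

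In the resistance experiment FGFR3 stood at 76.0, 78.9 and 80.1 CPM in the parental libraries and at 198.0, 184.1 and 193.5 CPM in the resistant libraries. Every resistant library was above every parental one. The means were 78.3 ± 2.10 and 192 ± 7.10 CPM, a 2.45-fold rise (log2 1.29 ± 0.046, adjusted p = 2.62e-13 by the same test), a size that 7.39% of tested genes reached. In order of level, the groups ran parental, plasmid, resistant, vector. No neighbours in that order overlapped, but the 2 tables were normalised separately and the order across them was not tested.

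FGFR2, a receptor whose splice forms divide ligands between epithelium and mesenchyme, had the largest fold fall of the 7 with the plasmid. Its levels were 28.6, 32.0 and 33.3 CPM in vector libraries and 8.35, 7.66 and 8.52 CPM in plasmid libraries. The groups were far apart, and the vector libraries spread more than the plasmid ones. The change was 3.83-fold (log2 -1.94 ± 0.070, adjusted p = 1.78e-13). Parental libraries held 16.1, 14.98 and 15.6 CPM and resistant libraries 19.9, 21.4 and 22.2 CPM. The groups did not overlap here either, though the gap was small. The rise was 1.36-fold (log2 0.44 ± 0.081, adjusted p = 0.000175) and did not pass a test for a change over 1.5-fold (adjusted p = 1, glmTreat).

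FGFR1, a receptor of mesenchymal and many cancer cells, rested on few counts. There were 23, 31 and 33 counts in vector libraries and 11, 8 and 9 in plasmid libraries, and the groups did not overlap in CPM. The pooled counts of 87 and 28, scaled to effective library size, gave a ratio of 0.365 (exact 95% interval 0.229 to 0.564, counting error only), and the log2 change was -1.44 ± 0.27 (adjusted p = 0.000129). Parental and resistant libraries pooled 69 and 77 counts, and the groups overlapped. That ratio was 1.06 (0.757 to 1.49, counting error only), and edgeR did not call the gene (log2 0.11 ± 0.39, adjusted p = 0.834). The bounds leave out the spread between libraries, so they are not a limit of detection. The sign of the FGFR1 change turned without parental library b (log2 -0.01) or resistant library 1 (log2 -0.22).

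FGFR4, a receptor best known from liver and as the partner of KLB, was as scarce. Vector libraries held 21, 30 and 37 counts and plasmid libraries 32, 30 and 42, a ratio of 1.34 (0.998 to 1.80) that was not called (log2 0.42 ± 0.19, adjusted p = 0.0595). In CPM these groups did not overlap, at 0.799, 1.04 and 1.09 in vector and 1.44, 1.21 and 1.34 in plasmid libraries. Resistant libraries pooled 113 counts against 76 in parental libraries, a ratio of 1.41 (1.05 to 1.92) that was not called either (log2 0.50 ± 0.35, adjusted p = 0.238). The latter interval covers counting error alone and leaves out 1, whereas the edgeR test also takes in the spread between libraries.

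**Figure D2:**
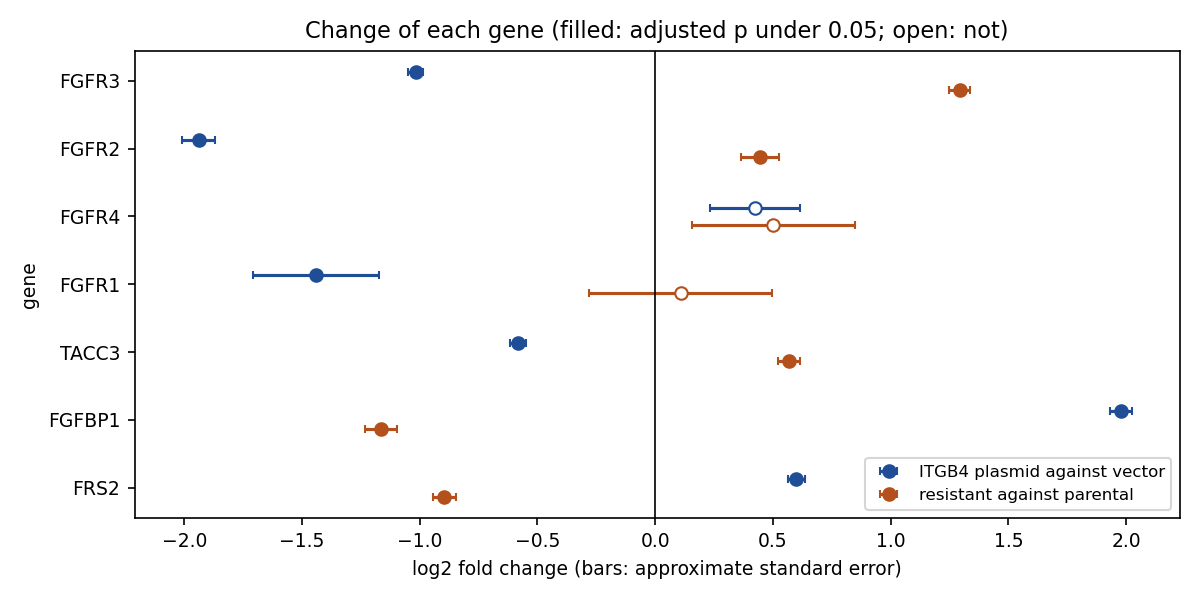
Log2 fold change of the 7 genes in the ITGB4 plasmid against vector comparison and in the resistant against parental comparison. Bars are approximate standard errors (3 against 3 libraries), and filled points have an adjusted p under 0.05; FGFR3, FGFR2, TACC3, FGFBP1 and FRS2 lie on opposite sides of 0 in the 2 experiments.

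Levels of different genes were compared per length, as CPM per kb of annotated exon. FGFR3 had 52.8 CPM per kb in vector, 26.1 in plasmid, 16.1 in parental and 39.6 in resistant libraries. FGFR2 had 4.13, 1.08, 2.05 and 2.79 CPM per kb in the same order, FGFR4 had 0.203, 0.275, 0.151 and 0.215, and FGFR1 had 0.0706, 0.0266, 0.0474 and 0.0515. The order FGFR3, FGFR2, FGFR4, FGFR1 was thus the same in all 4 groups. FGFR3 made up 92.3 ± 0.552% of the summed receptor level per length in vector libraries and 94.97 ± 0.154% in plasmid libraries. It made up 87.7 ± 0.400% in parental and 92.8 ± 0.394% in resistant libraries. The FGFR2 share was 7.22%, 3.93%, 11.2% and 6.56%. The summed level of the 4 receptors went from 57.2 to 27.5 CPM per kb with the plasmid and from 18.4 to 42.6 in resistance, with most of the difference in FGFR3.

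TACC3, a microtubule-binding protein of the mitotic spindle, moved with FGFR3 but less. It stood at 276.6, 283.0 and 284.7 CPM in vector libraries and at 197.5, 177.9 and 188.9 CPM in plasmid libraries, with no overlap. TACC3 fell by 0.58 ± 0.033 on the log2 scale (adjusted p = 6.94e-11). In resistance the levels were 224.0, 216.7 and 213.3 CPM against 342.5, 328.3 and 299.6 CPM, and again the groups stood apart. The rise was 1.48-fold (log2 0.57 ± 0.048, adjusted p = 1.84e-08). Neither change passed a test for more than 1.5-fold, with adjusted p-values of 0.785 and 1 (glmTreat).

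Because reads of the fusion enter both counts, the length-scaled ratio of FGFR3 to TACC3 was followed in each library. It was 1.24, 1.22 and 1.21 in vector libraries and 0.899, 0.919 and 0.899 in plasmid libraries. It was 0.457, 0.490 and 0.505 in parental libraries and 0.779, 0.755 and 0.870 in resistant libraries. The group means were 1.22 ± 0.013, 0.905 ± 0.011, 0.484 ± 0.025 and 0.801 ± 0.060 (SD, n = 3). FGFR3 thus fell by more than TACC3 with the plasmid and rose by more in resistance, and in both experiments the libraries of the 2 groups did not overlap. The ratio is per length of all annotated exons of each gene, and isoforms that use fewer exons shift it, so a value of 1 has no special meaning.

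**Figure D3:**
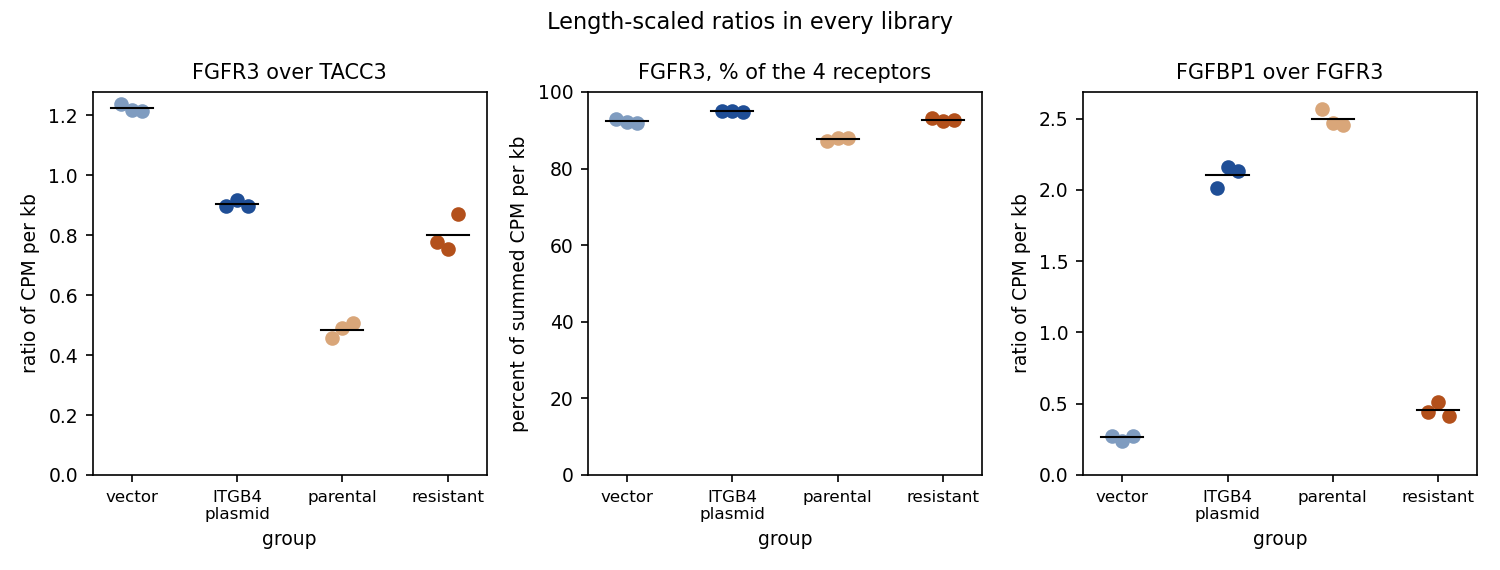
Ratios of length-scaled levels (CPM per kb) in each library: FGFR3 over TACC3, FGFR3 as a percent of the 4 receptors, and FGFBP1 over FGFR3. Points are libraries and lines are group means (n = 3); FGFR3 over TACC3 goes from 1.22 to 0.905 with the plasmid and from 0.484 to 0.801 in resistance, and FGFBP1 over FGFR3 goes from 0.263 to 2.10 and from 2.50 to 0.456.

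TACC3 was read beside the other spindle genes, since its transcript is high in dividing cells. Of 7 TACC family and spindle partner genes tested, 2 rose and 4 fell with the plasmid, beside 36.5% and 35.7% of all tested genes. Their median log2 was -0.21, against 0.0017 over all genes. TACC2 (-0.80), TACC1 (-0.70), the mitotic kinase gene AURKA (-0.33) and CKAP5 (-0.21) fell along with TACC3, while GTSE1 (0.27) and PIK3C2A (0.17) rose. At a change over 1.5-fold 0 rose and 2 fell, beside 3818 of all 16950 tested genes called in either direction. In resistance 1 rose and 6 fell (median -0.21, against 0.018 over all genes), beside 26.8% and 27.7% of all tested genes. When libraries were scaled by size alone, 3 of the 7 were called lower in place of 6. AURKA, whose kinase phosphorylates TACC3, fell by 2.16 on the log2 scale (adjusted p = 1.7e-15), and CKAP5, the microtubule polymerase that TACC3 brings to the spindle, fell by 0.71. GTSE1, another microtubule-binding protein of the list, fell by 1.61 and CLTC, the clathrin heavy chain, by 0.21. CLTC was among the calls lost to that scaling (adjusted p = 0.365). The member that rose was TACC1, and that call was lost without parental library a, parental library c or resistant library 2.

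Of 9 mitotic genes, all 9 fell in resistance, beside 27.7% of all tested genes, with a median log2 of -1.65. CDC20 fell by 2.20, PLK1 by 2.06, BUB1 by 2.02 and TOP2A by 1.62 on the log2 scale. TACC3 rose in the same libraries in which these genes fell. With the plasmid, 4 of the 9 rose and 5 fell (median -0.15), beside 36.5% and 35.7% of all tested genes. CCNB1 (-0.65), CDC20 (-0.67) and TOP2A (-0.37) were among those that fell, and MKI67 (0.26) among those that rose. At a change over 1.5-fold 0 rose and 1 fell, beside 3818 of all 16950 tested genes called in either direction.

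FGFBP1, a secreted protein that releases FGFs from heparan sulfate stores, moved in the direction opposite to FGFR3. Vector libraries held 19.7, 17.1 and 19.8 CPM and plasmid libraries 74.3, 73.6 and 75.4 CPM. All 3 plasmid libraries lay far above the vector ones and close to each other. The rise was 3.94-fold (log2 1.98 ± 0.047, adjusted p = 5.97e-16). In resistance the levels were 54.7, 54.7 and 55.1 CPM in parental libraries and 24.6, 26.5 and 22.3 CPM in resistant libraries. The groups did not overlap, and the fall was 2.24-fold (log2 -1.16 ± 0.068, adjusted p = 1.81e-10). Per length, FGFBP1 was below FGFR3 in the vector and resistant groups, at ratios of 0.263 and 0.456, and above it in the plasmid and parental groups, at 2.10 and 2.50.

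Of 18 secreted FGF ligand genes, 1 passed the low-count filter in the overexpression table and 2 in the resistance table. FGF3, FGF4, FGF6, FGF9, FGF10 and FGF16 were at 0 counts in all 12 libraries, and FGF23 in the 6 overexpression libraries. A count of 0 allows up to 3 counts in a library. FGF2, a ligand without a signal peptide that binds most FGF receptors, had 5, 6 and 7 counts in vector libraries and 68, 82 and 94 in plasmid libraries. Every plasmid library was far above every vector library. The ratio was 15.4 (exact 95% interval 9.51 to 26.3, counting error only), and the gene was called higher (log2 3.91 ± 0.21, adjusted p = 2.8e-11). NUDT6, on the other strand, covers 11.9% of FGF2 exon bases, and without strand its reads cannot be kept apart. In resistance FGF2 was not called (log2 -0.46, adjusted p = 0.246). There FGF21, an endocrine FGF that needs KLB, had 2, 6 and 2 counts in parental libraries and 56, 43 and 55 in resistant libraries. Its ratio was 14.7 (7.75 to 31.2; log2 3.83 ± 0.48, adjusted p = 2.85e-06). In the overexpression table FGF21 had 15 and 4 counts in all, a ratio of 0.302 (0.0730 to 0.948), and did not pass the filter of that experiment alone. In the fit of all 12 libraries its change with the plasmid was -1.67 and differed from that in resistance by -5.50 (adjusted p = 6.54e-06).

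Among co-receptors and carriers, FGFRL1, an FGF-binding receptor without a kinase domain, fell with the plasmid (log2 -0.46, adjusted p = 0.000888) and rose in resistance (1.28, adjusted p = 0.00038). FGFBP3, a relative of FGFBP1, rose in resistance (1.19, adjusted p = 0.00097), from 112 to 269 counts in all. With the plasmid it stood at -0.94 with an adjusted p of 0.0582. It was called lower when scaled by library size alone (adjusted p = 0.0491) or by upper quartiles (0.0437), with no low-count filter (0.0301), and without vector library 1 (-1.24) or plasmid library 1 (-1.32). An antisense gene covers 10.6% of its exon bases. KLB, with 36 and 17 counts in all, passed the filter in resistance only and was not called by edgeR (log2 -1.14, adjusted p = 0.194), while limma-voom called it lower (-2.02, adjusted p = 0.0498).

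Heparan sulfate, the sugar chain that holds FGFs at their receptors, is made and carried by 15 listed genes, of which 14 were tested in each experiment. With the plasmid 1 rose and 11 fell (median log2 -0.34), beside 36.5% and 35.7% of all tested genes. In resistance 5 rose and 6 fell (median -0.08), beside 26.8% and 27.7%, so that split lies near the background. With the plasmid the core protein gene SDC2 fell by 1.83 on the log2 scale, the chain polymerase gene EXT1 by 0.44 and the sulfotransferase gene HS6ST2 by 0.46, while NDST1, whose enzyme starts sulfation, rose by 0.41. In resistance SDC3 rose by 1.47, while SDC4 fell by 0.64, EXT2 by 0.63 and EXT1 by 0.51. At a change over 1.5-fold, 0 rose and 1 fell with the plasmid, and 2 rose and 0 fell in resistance. Of all tested genes, 3818 of 16950 and 2107 of 16875 were called at that size in either direction.

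FRS2, the docking protein that carries the signal from the receptor to GRB2, SOS1 and PTPN11, also moved opposite to FGFR3. Its levels were 72.9, 74.5 and 74.5 CPM in vector libraries and 105.6, 114.8 and 115.4 CPM in plasmid libraries. All plasmid libraries were higher, and plasmid library 1 was the lowest of them. The rise was 1.51-fold (log2 0.60 ± 0.036, adjusted p = 1.46e-10), and it did not pass a test for a change over 1.5-fold (adjusted p = 0.484). Parental libraries held 115.5, 113.5 and 115.8 CPM, and resistant libraries 59.3, 61.2 and 64.7 CPM. The groups did not overlap, and the fall was 1.86-fold (log2 -0.90 ± 0.049, adjusted p = 6.81e-11). Per length, FRS2 had 10.2, 15.5, 15.9 and 8.53 CPM per kb in vector, plasmid, parental and resistant libraries. That is below FGFR3 in vector, plasmid and resistant libraries, while in parental library a FRS2 (15.95) was above FGFR3 (15.67).

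Downstream of FRS2, 26 relay genes were tested in both experiments. With the plasmid 13 rose and 11 fell (median log2 0.11), beside 36.5% and 35.7% of all tested genes. At a change over 1.5-fold 3 rose and 2 fell, beside 3818 of all 16950 tested genes called in either direction. The genes with the smallest p were the adaptor gene SHC1 (1.17), the PI3 kinase regulatory subunit gene PIK3R1 (-0.89), the ubiquitin ligase gene CBL (0.77) and the RAS exchange factor gene SOS1 (-0.62). SOS1 was not called at over 1.5-fold (adjusted p = 0.233). In resistance 3 rose and 16 fell (median -0.18), beside 26.8% and 27.7% of all tested genes. At a change over 1.5-fold 0 rose and 2 fell, beside 2107 of all 16875 tested genes called in either direction. MAP2K1 and MAP2K2, the genes of MEK1 and MEK2, fell by 1.06 and 0.76 on the log2 scale, and the kinase gene RPS6KA3 and the adaptor gene CRKL each fell by 0.55. When libraries were scaled by size alone, 6 of these genes rose and 9 fell in resistance.

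Feedback and target genes of the MAP kinase route included 15 tested genes, among them phosphatases and transcription factors that ERK induces. With the plasmid 3 rose and 9 fell (median log2 -0.44), beside 36.5% and 35.7% of all tested genes. In resistance 5 rose and 5 fell (median 0.14), near the 26.8% and 27.7% of all tested genes. DUSP4, which removes phosphate from ERK in the nucleus, stood at 96.4, 98.6 and 98.5 CPM in vector and 34.5, 33.2 and 35.0 CPM in plasmid libraries. It stood at 60.7, 61.4 and 66.9 CPM in parental and 147.9, 142.5 and 147.4 CPM in resistant libraries. DUSP4 thus fell with the plasmid (-1.51, adjusted p = 4.3e-16) and rose in resistance (1.21, adjusted p = 1.58e-12), the same directions as FGFR3. PHLDA1 moved likewise, at -1.03 and 0.65. DUSP5, another ERK phosphatase, fell in both, by 1.88 and by 1.22 on the log2 scale. ETV5, an ETS transcription factor gene, fell with the plasmid (-0.97), and the early response gene EGR1 rose in resistance (1.21). Other genes of the list called lower in resistance were SPRY4 (-0.77), FOSL1 (-0.68), CCND1 (-0.47) and DUSP6 (-0.22). The remaining genes called higher there were ETV5 and SPRED1, each at 0.18. SPRY4 and CCND1 rose with the plasmid (0.15 and 0.13), so they moved opposite to FGFR3 in both experiments.

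**Figure D4:**
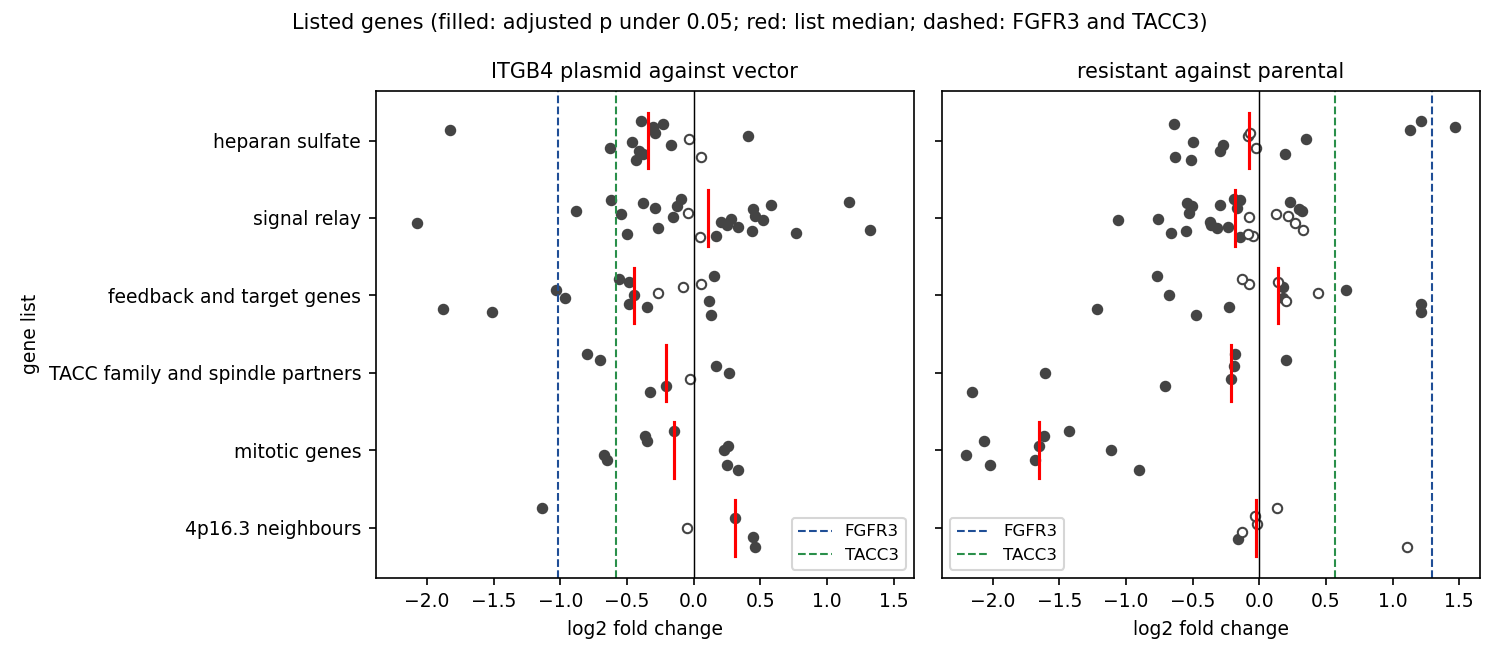
Log2 fold change of every tested gene of 6 lists in each experiment. Filled points have an adjusted p under 0.05, red bars are list medians, and dashed lines mark FGFR3 and TACC3; in resistance all 9 mitotic genes lie left of 0 while the FGFR3 and TACC3 lines lie right of it.

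The genes around FGFR3 and TACC3 were read to see whether their neighbours moved alike. The 6 other protein-coding genes between FAM53A and NELFA were FAM53A, SLBP, TMEM129, LETM1, NSD2 and NELFA. With the plasmid, LETM1, a mitochondrial ion carrier gene next to FGFR3, rose by 0.46 on the log2 scale, NELFA by 0.44 and SLBP, the histone stem-loop binding protein gene, by 0.31. NSD2, a histone methyltransferase gene, was at -0.05 and was not called (adjusted p = 0.123), although it was called lower at -0.09 when scaled by library size alone, at -0.11 by upper quartiles and at -0.06 under a filter at 1 CPM. TMEM129, a ubiquitin ligase gene that starts beside TACC3 on the other strand, fell by 1.14 (adjusted p = 1.34e-11), from 27.0, 27.6 and 28.6 CPM to 13.5, 11.9 and 12.6 CPM. FAM53A did not pass the low-count filter in that experiment. Of the 5 neighbours tested there, 3 rose, 1 fell and 1 was not called, beside 36.5% of all tested genes called higher and 35.7% called lower.

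In resistance 1 of the 6 neighbours was called, LETM1 at -0.16 (adjusted p = 0.0113), beside 27.7% of all tested genes called lower and 54.5% in either direction. The other values were TMEM129 0.13, NELFA -0.13, SLBP -0.03, NSD2 -0.02 and FAM53A 1.11, the last with an adjusted p of 0.0945. Scaled by library size alone, LETM1 stood at 0.0025, NELFA at 0.035, SLBP at 0.13 and NSD2 at 0.14, and 3 neighbours were called higher, TMEM129 among them (0.29). Upper-quartile factors also called TMEM129 higher (0.24, adjusted p = 0.0094) and lost LETM1 (adjusted p = 0.37). The fit of all 12 libraries called FAM53A higher (adjusted p = 0.0406) and NELFA lower (adjusted p = 0.0453) beside LETM1. FGFR3 stood at 1.29 and TACC3 at 0.57, and the 5 neighbours other than FAM53A were smaller in size. The value of FAM53A was above that of TACC3 but rested on 26 parental and 58 resistant counts in all. Its groups overlapped and its SE was 0.54.

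**Figure D5:**
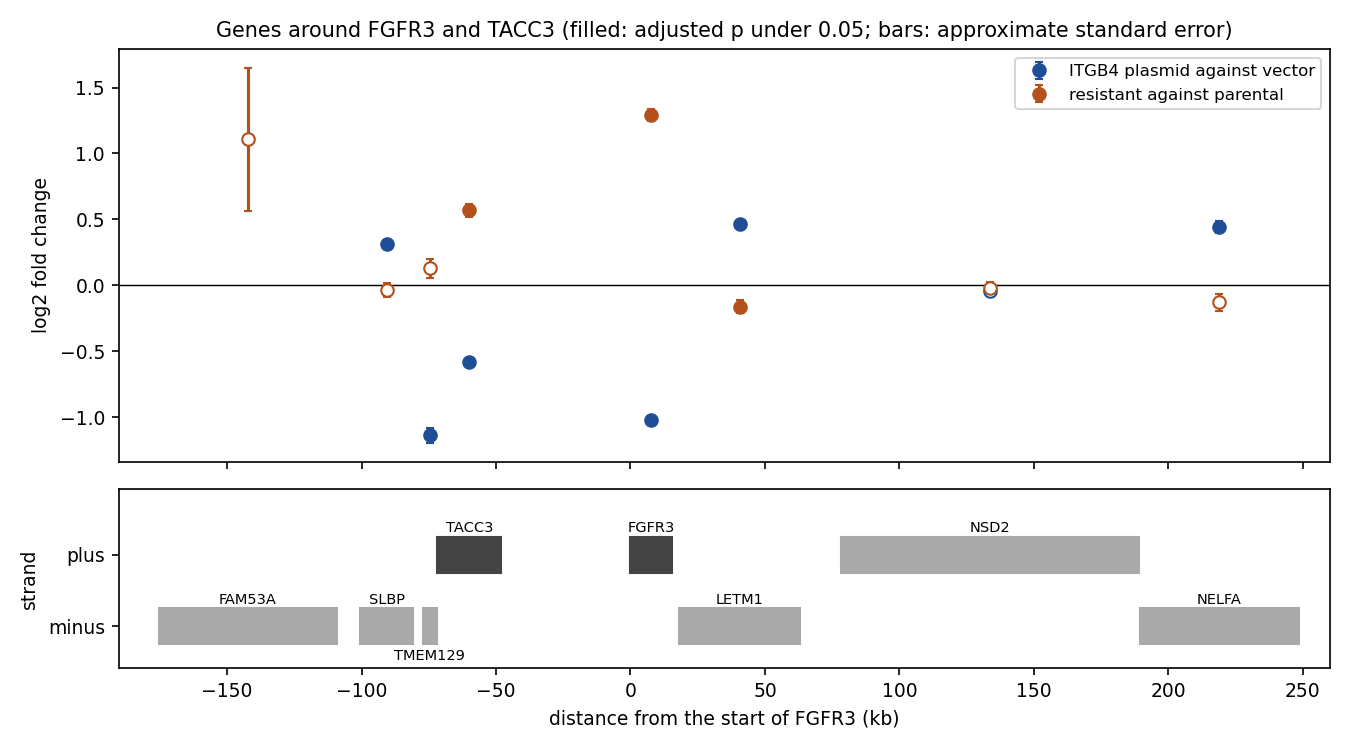
Log2 fold change of FGFR3, TACC3 and the 6 neighbouring protein-coding genes at their distance (kb) from the start of FGFR3, above a map of the genes by strand. Bars are approximate standard errors and filled points have an adjusted p under 0.05; FGFR3 and TACC3 are below 0 with the plasmid and above it in resistance, and TMEM129 is the other gene below -1 with the plasmid.

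A fit of all 12 libraries gave the difference between experiments, as the change with the plasmid minus the change in resistance. It was called for 6 of the 7 genes, beside 61.8% of 18516 tested genes. FGFR3 differed by -2.33 ± 0.055 on the log2 scale (adjusted p = 2.03e-18), FGFR2 by -2.40 ± 0.11 (5.42e-14), TACC3 by -1.17 ± 0.064 (1.68e-12) and FGFR1 by -1.56 ± 0.47 (0.00747). FGFBP1 differed by 3.12 ± 0.086 (adjusted p = 3e-17) and FRS2 by 1.47 ± 0.059 (adjusted p = 1.33e-14). FGFR4 did not pass (-0.09 ± 0.38, adjusted p = 0.854). Opposite signs were common. Of 7018 genes called in both experiments, 36.9% rose with the plasmid and fell in resistance, as FGFBP1 and FRS2 did, and 30% fell and then rose, as FGFR3, FGFR2 and TACC3 did. The same sign was seen for 15.9% (both higher) and 17.2% (both lower). Medium, library set and table go with the experiment, and their part in this difference cannot be told apart.

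Likeness was measured over the 12 libraries as Pearson's r of log2 CPM after the mean of each table was taken away. It is a description, since 4 group means carry most of it and the libraries of a table share normalisation. FGFR3 followed TACC3 at 0.976, FRS2 at -0.992, FGFBP1 at -0.928 and FGFR2 at 0.773. Among 11556 genes compared, those closest to FGFR3 were INKA2 (0.996), TMA7 (0.996) and MAMDC4 (0.995). INKA2 changed by -1.22 with the plasmid and 1.47 in resistance, TMA7 by -0.74 and 0.86, and MAMDC4 by -0.99 and 1.28. Those closest to TACC3 were SUMF1 (0.996, with changes of -0.89 and 0.93), the ubiquitin gene UBB (0.995, -0.49 and 0.45) and GABPB2 (0.994, -0.70 and 0.62). UBB has near-identical pseudogene copies, so its count is uncertain.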

How the data were processed

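RNA-seq of 12 RT4 libraries was analysed from the 2 tables of raw counts per gene that the authors deposited. Per the file headers, read pairs of the overexpression libraries were counted over exons with featureCounts 2.0.1 and the Ensembl release 107 annotation, without a strand option. Per the labels' protocols the library kit marks strand. Per the submitters' processing notes the genome is hg38. What aligned and counted the resistance libraries, and any aligner version, is not given in the sources used here. Groups came from sample titles. The parental columns, whose numbers no label ties to a sample, are called a, b and c.

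Symbols matched 61757 of 61860 and 62700 of 62700 identifiers. In each experiment, TMM factors were computed, genes were filtered by filterByExpr, and the quasi-likelihood test of edgeR 4.0.16 (under R 4.3.3) was run. P-values were adjusted by Benjamini and Hochberg's method across every tested gene. Each SE is the log2 change divided by the square root of F. The difference between experiments came from 1 fit with 4 group means. Count ratios have exact binomial intervals at 95%. Exon lengths are unions of GENCODE 29 exons. Every pair of replicates differed by more than sampling noise.

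Members and gene lists were chosen with earlier results of these data known. The named genes are all members, up to 4 genes of a list with the smallest p, list genes at 0, all neighbours, and the 3 genes most like FGFR3 and TACC3 among those at a mean of at least 1 CPM. TACC1 and ETV5 in resistance and the epithelial and other markers given by level were named after their values were seen. So were UPK2, UPK3A, UPK3B, SPRY4, FOSL1, CCND1, DUSP6 and SPRED1, and GTSE1 and PIK3C2A with the plasmid. The procedure was tested on simulated data. Alternatives were other scalings and filters, DESeq2 1.42.0, limma-voom (limma 3.58.1), glmTreat, 1 fit for all 12 libraries, the replicate block, and each library left out in turn.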

Additional observations from a re-analysis of the deposited data

How the results depend on the processing

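FGFR3, FGFR2, FGFBP1 and FRS2 kept their directions in both experiments under every alternative run, as did TACC3, and no called change of a member was reversed. FGFR3 ranged from -1.08 to -0.98 with the plasmid and from 1.27 to 1.46 in resistance on the log2 scale. Under a test for a change over 1.5-fold the TACC3 call was lost at -0.58 with the plasmid (adjusted p = 0.785) and at 0.57 in resistance (adjusted p = 1), genes called fell from 12234 to 3818 and from 9199 to 2107, and members called in resistance from 5 to 3. With the plasmid 4 members then remained called. In resistance, library sizes alone turned LETM1 to 0.0025, NELFA to 0.035, SLBP to 0.13 and NSD2 to 0.14, and upper-quartile factors turned SLBP to 0.072 and NSD2 to 0.086. Leaving out each library in turn gave -0.22 to 0.34 for FGFR1, -0.93 to 0.026 for FGF11 and -0.038 to 0.0034 for NSD2 in resistance, and -0.32 to 0.14 for FGFR4 in the difference between experiments. The difference between experiments had 48.8% of its calls higher, and 37.9% with library sizes alone. No pairing of vector and plasmid samples by library number was seen, as the deviations of same-numbered samples correlated at -0.0425, -0.0852 and 0.0326. Whether same-numbered samples were handled together cannot be told from these values. With the replicate block 12070 genes and 6 members were called, and in resistance no block was run, because no label ties the numbers in the parental column headings to a sample. Low counts limit FGFR1 and FGFR4.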

Other observations

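Urothelial differentiation genes moved in opposite directions in part. Of 15 tested urothelial and epithelial markers, 9 rose and 4 fell with the plasmid (median log2 0.27), and 5 rose and 8 fell in resistance (median -0.20), beside 36.5% and 35.7% of all genes called higher and lower with the plasmid and 26.8% and 27.7% in resistance. UPK1B, a uroplakin of the apical membrane, rose by 1.42 with the plasmid (adjusted p = 2.1e-16, edgeR) and fell by 1.29 on the log2 scale in resistance (adjusted p = 9.48e-12), the directions of FGFBP1 and FRS2. The uroplakins did not move alike. UPK3B went with UPK1B, at 0.30 and -0.58, while UPK2 (-0.94 and 0.68) and UPK3A (-0.45 and 1.62) went in the directions of FGFR3. KRT18, a keratin of simple epithelium, rose in both, at 0.70 and 0.49. GRHL3, a factor of urothelial differentiation, rose with the plasmid (0.97), and the pioneer factor gene FOXA1 fell in resistance (-0.81).

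Of the FGF homologous factors, relatives of FGFs that stay inside the cell and bind sodium channels, FGF12 fell with the plasmid from 285 to 77 counts in all (log2 -1.69 ± 0.18, adjusted p = 1.77e-07). In resistance it stood at 0.48 and was not called (adjusted p = 0.137), but was called higher when libraries were scaled by size alone (0.64, adjusted p = 0.0454). FGF11 was not called in either experiment, at -0.24 and -0.42.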
